A study of Homo sapiens with 6 samples.

Results

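MDM2, the ubiquitin ligase that marks p53 for destruction, was 1.35-fold lower on the arrays labelled RNF43 siRNA than on the control arrays, and SESN1, a p53 target that restrains the growth kinase mTORC1, was 1.66-fold higher. None of the other 6 genes measured in this set passed the test. The 2 calls among 8 genes, 25%, lay near the 22.6% of all genes tested that were called. The MDM2 call was lost when its probe sets were averaged (limma adjusted p = 0.156). It was also lost without the probe sets marked as able to bind more than 1 transcript (limma adjusted p = 0.525). The set holds 9 genes around the transcription factor p53, taken by name: the regulators MDM2 and MDM4 and the target genes SESN1, TP53I3, RRM2B, ZMAT3, PPM1D, TP53INP1 and BTG2. Of these, 8 were read by 29 probe sets that name a single gene, out of 19775 genes and 54613 probe sets on the array. BTG2 was named by no such probe set, and neither it nor the p53 transcript itself was analysed here.

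The cells are labelled HepG2, the name of a human liver cancer line. With Lipofectamine 2000 they received either an siRNA meant as a negative control or one directed at RNF43, a membrane ubiquitin ligase that restrains Wnt signalling by removing Frizzled receptors. The question was how transcript levels differed between the groups 48 h later. Total RNA of 3 samples per group, called biological replicates in the labels, was hybridised to 6 HG-U133 Plus 2.0 arrays, 6 µg per sample. Whether the replicates were separate cultures is not stated, so every p-value measures only the spread seen among these arrays, which may be technical in part. Each group rests on 1 siRNA sequence. They are shown because every difference below is between them. The antisense strands have the seed, bases 2 to 8, in capitals:

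RNF43 siRNA, sense strand: cagaacagaaagcuauuautt

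RNF43 siRNA, antisense strand: aUAAUAGCuuucuguucugtt

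control siRNA, sense strand: uucuccgaacgugucacgutt

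control siRNA, antisense strand: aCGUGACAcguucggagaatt

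The siRNA's own target went against the label. The log2 signal of RNF43, read by 1 probe set, was 7.65, 7.79 and 7.45 on the control arrays and 8.19, 8.22 and 8.41 on the arrays labelled RNF43 siRNA. RNF43 was thus 1.56-fold higher in the group labelled as its knockdown (limma adjusted p = 0.0098, exact two-sided permutation p = 0.1, the smallest that 3 against 3 arrays allow). All directions below are those of the arrays so labelled. The cell label also stood against its markers. Of 11 hepatocyte marker genes matched, 10 had a mean signal below the filter used here, a log2 signal of 5.83. Albumin (ALB) lay between 3.82 and 4.43, and only alpha-fetoprotein (AFP) passed, at 6.12 to 7.13. Of 10 fibroblast and stellate cell markers 6 passed the filter, among them lumican (LUM) at 13.07 to 13.43, the brightest. The other 4 had mean signals below it: THY1 at 5.53, COL1A2 at 5.01, PDGFRB at 4.04 and POSTN at 3.91. Of 8 blood and endothelial markers matched, 2 passed, HBB with a mean of 7.23 and PECAM1 with 6.71. No marker of these lists was at 0 on its brightest probe set. The summed linear signal of the fibroblast and stellate cell list was 15900 to 16100 on the control arrays and 12500 to 13600 on the others, and 4 of its 6 tested members were lower, where 11.1% of all genes tested were. That of the hepatocyte list was 387 to 537 and 265 to 355. The part of these shifts in the results below was not tested. In bulk RNA, fewer cells of a type and less RNA per cell cannot be told apart.

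p53 is kept scarce in unstressed cells by MDM2, which ubiquitinates it, and by MDM4, a relative that binds and silences it. When DNA damage or other stress frees p53, it switches on genes for cell cycle arrest, repair, antioxidant defence and death. MDM2 is itself such a target, which closes a negative feedback loop, and other targets such as PPM1D also feed back on p53.

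Of the 8 genes tested on their brightest probe set, 1 was higher and 1 was lower (limma adjusted p under 0.05). Among all 11853 genes tested, 22.6% passed, 11.5% as higher and 11.1% as lower, so the 2 calls among 8 genes, 25%, lay near the background share. The median log2 difference of the 8 genes was 0.09, against -0.00 over all genes tested. Across every probe set of the members, 23 of 29 passed the filter, and of these 4 were lower and 1 was higher. That is 21.7% called, where 15.5% of all 27306 probe sets tested were called, 7.9% as higher and 7.55% as lower. Groups did not overlap on 11 of the 23, or 47.8%, against 33.8% of all probe sets tested, 17% with the RNF43 siRNA arrays above and 16.8% with them below. The 4 lower probe sets all read MDM2 and may share transcripts or probes, so they do not count as 4 independent genes.

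**Figure D1:**
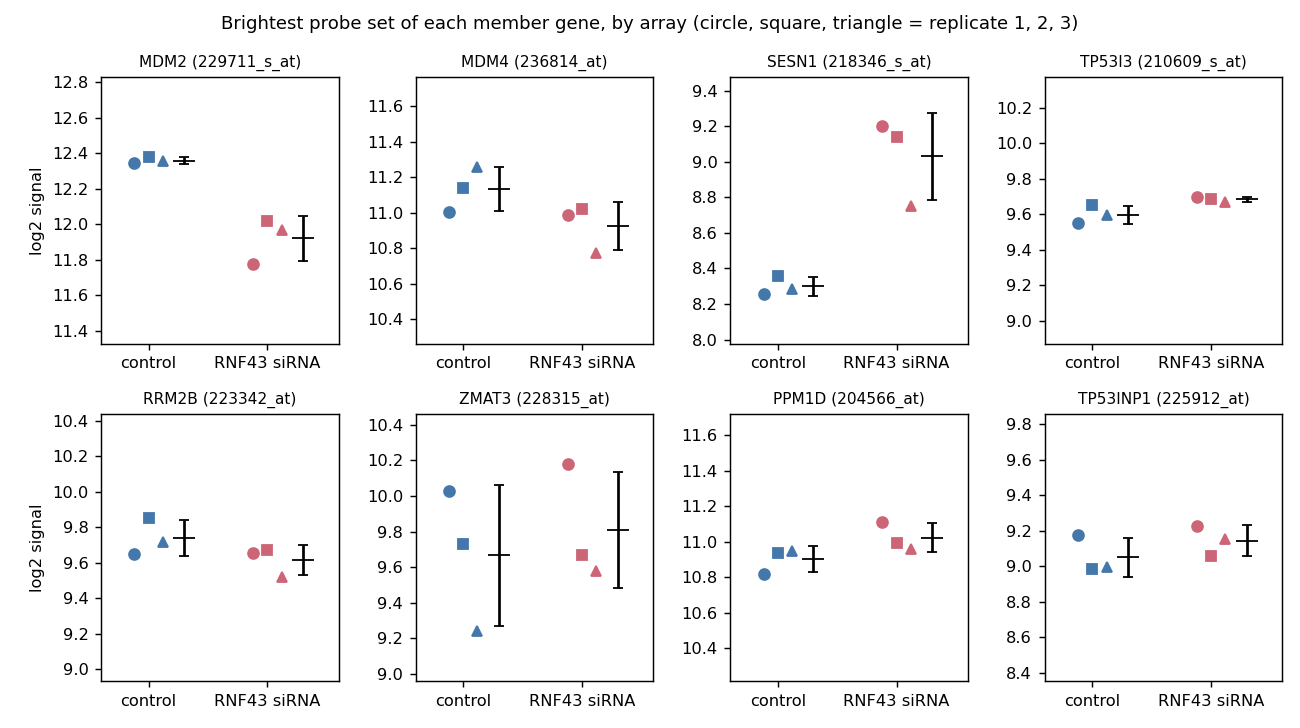
Log2 signal of the brightest probe set of each of the 8 measured genes on the 3 control arrays (blue) and the 3 arrays labelled RNF43 siRNA (red), with bars for mean ± SD. The y axes all span 1.5 log2 units. The groups lie apart by the widest gaps for MDM2, from 12.36 to 11.92, and SESN1, from 8.30 to 9.03.

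The mean of MDM2 was lower in the group labelled RNF43 siRNA on 9 of its 10 probe sets. Of these 10, 7 were tested and 4 were called lower. The count of 9 includes untested probe sets and says nothing of the spread. Its brightest probe set, 229711_s_at, read 12.34, 12.38 and 12.35 on the control arrays and 11.78, 12.02 and 11.97 on the others. The control arrays lay within a narrow band and all 3 arrays labelled RNF43 siRNA lay below it, with replicate 1 the lowest. The means were 12.36 ± 0.02 and 11.92 ± 0.13 (SD, n = 3), which is -0.44 as a log2 difference (SE 0.08, limma adjusted p = 0.00239). As a fold this was 1.35, with a 95% confidence interval of 1.21 to 1.52. By size this change stood at the 82.2 percentile of all genes tested.

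The next probe set, 225160_x_at, gave nearly the same picture. It read 10.90, 10.89 and 11.03 on the control arrays and 10.56, 10.56 and 10.50 on the arrays labelled RNF43 siRNA, which is -0.40 as a log2 difference (SE 0.07, limma adjusted p = 0.00703 over all probe sets). The groups did not overlap there either. The 2 further called probe sets were dimmer. Probe set 217373_x_at read 7.34, 7.29 and 7.73 against 6.75, 6.61 and 6.59, a difference of -0.80 (SE 0.19, limma adjusted p = 0.0235). Probe set 205386_s_at read 7.39, 7.49 and 7.50 against 6.40, 6.95 and 6.85, a difference of -0.73 (SE 0.20, limma adjusted p = 0.0389). On both, all control values lay above all others. The calls on 217373_x_at and 205386_s_at did not last when single arrays were left out: 205386_s_at lost its call without any 1 array, and 217373_x_at without any 1 array but RNF43 siRNA replicate 1.

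Of the remaining tested MDM2 probe sets, 244616_x_at also had groups that did not overlap, at 7.82, 8.27 and 7.70 against 7.15, 7.56 and 6.89, and just missed the threshold (difference -0.73, limma adjusted p = 0.0542). It passed without control siRNA replicate 3 (adjusted p = 0.0403), without RNF43 siRNA replicate 2 (0.0469) and with array weights (0.0415). On 217542_at and 238733_at the groups overlapped, with differences of -0.21 and -0.52. Both tested probe sets ending in _s_at and 2 of the 3 ending in _x_at were called lower. These endings mark probes that can bind more than 1 transcript. Neither of the 2 plain _at probe sets passed. The fall on plain 238733_at, -0.52 (SE 0.33), was nonetheless larger than the -0.44 (SE 0.08) on the called 229711_s_at. Without the _s_at and _x_at probe sets MDM2 is therefore read by 217542_at and its call is lost (adjusted p = 0.525). It is also lost when all its probe sets are averaged (log2 difference -0.42, adjusted p = 0.156). The range of adjusted p over all alternatives was 7.21e-05 to 0.525.

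**Figure D2:**
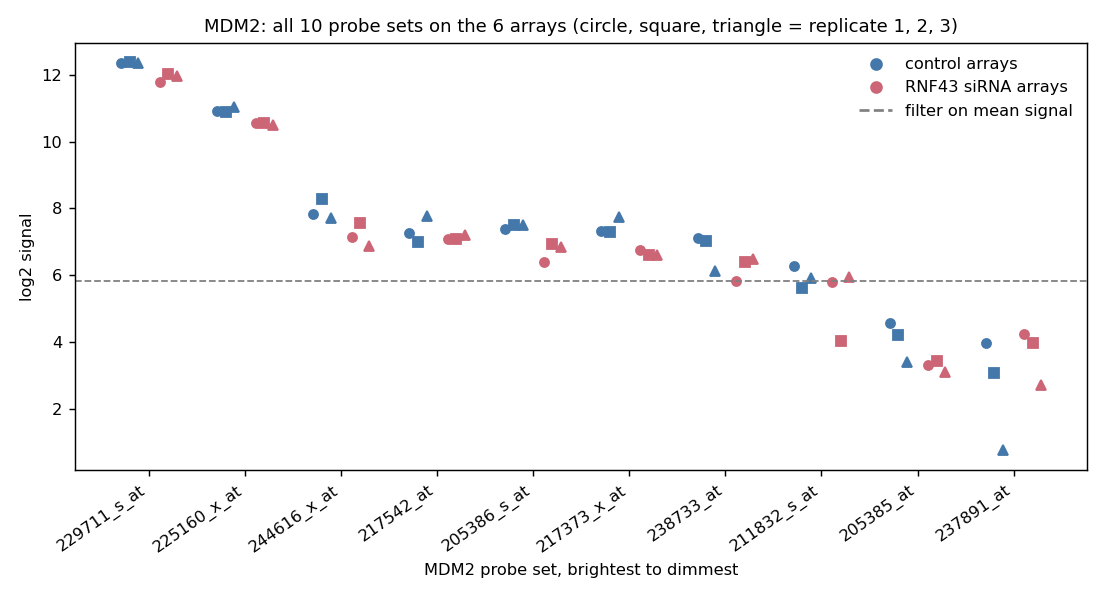
Log2 signal of all 10 MDM2 probe sets, ordered from brightest to dimmest, on the control arrays (blue) and the arrays labelled RNF43 siRNA (red). The dashed line is the filter at 5.83. On 5 of the 7 probe sets above it, all red points lie below all blue points, and the dimmest probe set alone has a higher red mean.

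The 3 MDM2 probe sets below the filter were not tested. Their means moved from 5.93 to 5.27 on 211832_s_at, from 4.07 to 3.30 on 205385_at and from 2.60 to 3.64 on 237891_at, where control replicate 3 alone read 0.76. In all 3 the groups overlapped. Whether the tested MDM2 probe sets differ from each other in response was tested on the difference of the brightest and each other probe set on the same array. In limma none of the 6 MDM2 pairs passed, with adjusted p of 0.470 to 0.940. The larger fall on 217373_x_at exceeded that on 229711_s_at by 0.37 on the log2 scale, with a 95% confidence interval of -0.13 to 0.86.

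MDM2 has a known promoter inside its first intron that p53 binds, and its start sites are in the RefSeq promoter table. The 250 bases before 1 of these starts (GRCh38.p14, chr12:68808767-68809016, plus strand) are shown because they hold the p53 elements of the gene called lower. Capitals mark the matches to the 20-letter p53 consensus site, with at most 3 mismatches:

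MDM2, internal promoter: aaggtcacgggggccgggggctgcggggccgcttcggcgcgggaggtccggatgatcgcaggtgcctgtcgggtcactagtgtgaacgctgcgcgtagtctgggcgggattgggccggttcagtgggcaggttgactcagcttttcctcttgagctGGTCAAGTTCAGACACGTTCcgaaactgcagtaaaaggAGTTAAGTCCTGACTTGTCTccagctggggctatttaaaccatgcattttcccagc

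The first match begins at base 157 of the window and has 2 mismatches, and the other begins at base 195 and has 3. Both MDM2 windows at its upstream starts held no match. The consensus reads the same on both strands, so 1 search covers both. Of 35114 windows of 300 bases in the table, 5.2% held such a match, and of 27303 genes 6.39%. A match describes the letters and does not show that p53 was bound in these cells.

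MDM4 resembles MDM2 in sequence and binds p53 without destroying it. Its brightest probe set, 236814_at, read 11.01, 11.14 and 11.25 on the control arrays and 10.98, 11.02 and 10.77 on the arrays labelled RNF43 siRNA. The groups overlapped, since control replicate 1 lay below RNF43 siRNA replicate 2. The log2 difference of -0.21 (SE 0.09) did not pass (limma adjusted p = 0.141), with a fold of 1.15 lower and a 95% confidence interval of 1.0 to 1.33. The 225740_x_at probe set, nearly as bright, had a difference of -0.02 whose sign turned under 5 alternatives, centring on the median among them. On 235162_at the groups did not overlap, with 8.51, 8.77 and 8.58 on the control arrays against 8.08, 8.47 and 8.20, but the difference of -0.37 did not pass either (adjusted p = 0.115). The 2 further tested MDM4 probe sets had differences of -0.30 and -0.21 with overlapping groups. The remaining one, 241876_at, fell below the filter and read 3.05 to 6.61 over the 6 arrays.

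SESN1 encodes sestrin 1, which p53 induces and which lowers mTORC1 activity through the GATOR complexes. Its 1 probe set, 218346_s_at, read 8.25, 8.36 and 8.29 on the control arrays and 9.20, 9.14 and 8.75 on the arrays labelled RNF43 siRNA. All 3 latter values lay above all controls, with replicate 3 nearest to them. The means were 8.30 ± 0.05 and 9.03 ± 0.24 (SD, n = 3), which is 0.73 as a log2 difference (SE 0.13, limma adjusted p = 0.00325). The rise was 1.66-fold, with a 95% confidence interval of 1.35 to 2.04, and by size it stood at the 94.5 percentile of all genes tested. Leaving out 1 array at a time gave log2 differences of 0.65 to 0.87, and SESN1 passed in each of its 19 alternatives. SESN1 has no plain _at probe set in this table, so the call could not be repeated without _s_at probe sets.

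Among the 7 members with a window, SESN1 was the other gene with a p53 consensus match, again with at most 3 mismatches. The 250 bases before the most downstream of its 3 starts (GRCh38.p14, chr6:109008989-109009238, minus strand) are shown as the counterpart of the MDM2 sequence in a gene called higher, with the match in capitals:

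SESN1, downstream promoter: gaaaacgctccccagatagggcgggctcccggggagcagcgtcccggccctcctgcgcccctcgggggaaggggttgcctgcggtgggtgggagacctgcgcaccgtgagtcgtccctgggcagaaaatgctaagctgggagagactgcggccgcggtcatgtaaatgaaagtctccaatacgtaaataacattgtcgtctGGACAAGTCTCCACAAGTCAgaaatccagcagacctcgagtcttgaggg

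This match begins at base 202 of the window and has 3 mismatches. The window also held 1 exact 10-letter p53 element, that is 1 of the 2 repeats that make up the 20-letter site. Such an exact element stood in 6.63% of all windows. The windows of MDM4, TP53I3, ZMAT3 and PPM1D held neither, which says only that these letters are not there. RRM2B and TP53INP1 had no window among those searched, so nothing is known here of their sites. The 2 genes with a match in a window were called in opposite directions. Whether the matches bear on either call was not tested.

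PPM1D encodes the phosphatase WIP1, which switches off p53 and its activating kinases. Its bright probe set, 204566_at, read 10.82, 10.94 and 10.95 against 11.11, 11.00 and 10.96 on the arrays labelled RNF43 siRNA. The groups did not overlap, by a narrow margin, and the log2 difference of 0.12 (SE 0.08) did not pass (limma adjusted p = 0.305). The dimmer 230330_at read 6.75, 6.35 and 6.54 against 7.22, 7.25 and 6.97, also without overlap, and its difference of 0.60 missed the threshold over all probe sets (adjusted p = 0.0835). It passed in limma with no intensity trend (adjusted p = 0.0458). The response of the PPM1D probe sets differed by 0.48 at an unadjusted p of 0.0386, the only one of 15 member pairs under 0.05. After adjustment over all 10807 pairs on the array, of which 1.09% passed in limma, 0.601% as higher and 0.49% as lower, it did not pass (adjusted p = 0.283), and 0 of the 15 did. Its groups did not overlap, nor did those of the MDM2 pair with 205386_s_at, where 21.2% of all pairs had such groups, 10.5% above and 10.7% below. With its probe sets averaged, PPM1D was called higher (log2 difference 0.36, adjusted p = 0.0381).

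TP53INP1, a nuclear and autophagy protein that promotes p53 phosphorylation, was read above the filter by 225912_at alone. Its values were 9.18, 8.98 and 9.0 against 9.23, 9.06 and 9.15. These overlapped, and the log2 difference was 0.09 (SE 0.10, limma adjusted p = 0.565). The other probe sets, 244721_at and 235602_at, lay below the filter, and 235602_at was at 0 on RNF43 siRNA replicate 3. ZMAT3, a zinc finger protein that binds RNA and regulates splicing, had the widest spread within groups of the 8 brightest probe sets. That probe set, 228315_at, read 10.03, 9.73 and 9.24 on the control arrays and 10.18, 9.67 and 9.58 on the others. The groups overlapped almost wholly, and the difference of 0.14 (SE 0.20, limma adjusted p = 0.661) turned to -0.070 without control siRNA replicate 3 and to -0.043 without RNF43 siRNA replicate 1.

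The other ZMAT3 probe sets did not share 1 direction. On 227221_at the values were 8.33, 8.49 and 8.07 against 8.82, 8.89 and 8.52, without overlap, and the difference of 0.45 did not pass over all probe sets (adjusted p = 0.0816). It passed without RNF43 siRNA replicate 3 (0.0481) and with array weights (0.0432). On 225725_at the difference was also 0.45, but there RNF43 siRNA replicate 3 stood far above the rest at 9.28, where replicate 1 read 8.30. The difference was 0.22 on 219628_at and -0.59 on 1555609_a_at, both with overlap. None of the 4 ZMAT3 pairs differed in response in limma, with adjusted p of 0.422 to 0.885.

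RRM2B encodes the p53-inducible subunit of ribonucleotide reductase, which supplies deoxynucleotides for repair. Its probe set, 223342_at, read 9.65, 9.85 and 9.72 against 9.66, 9.67 and 9.52, which is -0.12 as a log2 difference (SE 0.09, limma adjusted p = 0.384) and a 95% confidence interval of the fold from 0.95 to 1.25 in the lower direction. TP53I3 encodes a quinone oxidoreductase linked to oxidative stress. Its probe set, 210609_s_at, read 9.55, 9.65 and 9.59 against 9.69, 9.68 and 9.67. All 3 values labelled RNF43 siRNA lay above the controls by a small margin, and the difference of 0.09 (SE 0.08) did not pass (limma adjusted p = 0.506, fold interval 0.94 to 1.20). Groups failed to overlap for 4 of the 8 genes, MDM2, SESN1, PPM1D and TP53I3, where 38.9% of all genes tested did so. For 3 of them the arrays labelled RNF43 siRNA lay above, against 19.1% of all genes, and for 1 below, against 19.8%.

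**Figure D3:**
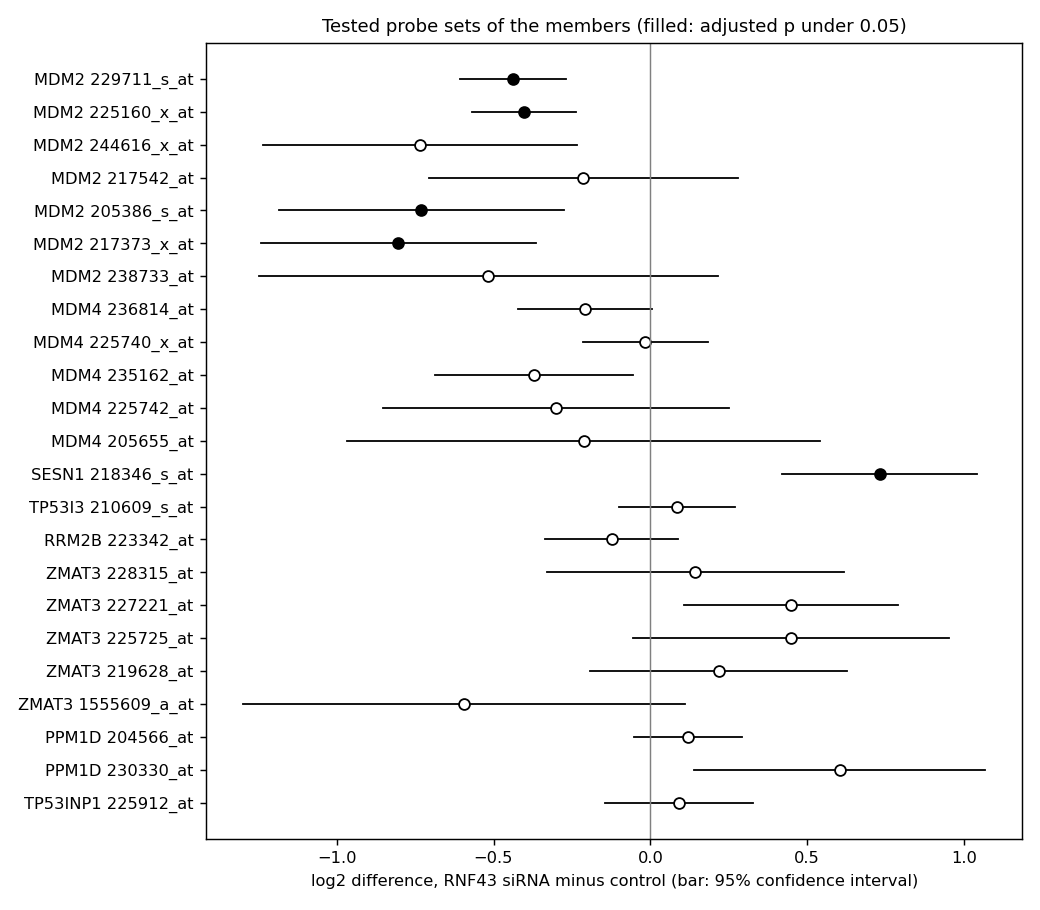
Log2 difference (RNF43 siRNA minus control, 3 arrays each) of the 23 tested probe sets with 95% confidence intervals from limma. Filled points passed at adjusted p under 0.05 over all probe sets. The 4 filled points left of 0 are MDM2 and the 1 to the right is SESN1, while the 5 MDM4 points lie at or left of 0, that of 225740_x_at turning positive with centring on the median.

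Among 60 other p53 target genes, 51 were tested, and they moved both ways. Of these 6 were higher and 9 were lower, 29.4% against the 22.6% of all genes, with a median log2 difference of -0.09. The gene most often used as a readout of p53, CDKN1A, which encodes the cell cycle inhibitor p21, did not pass. It read 11.44, 11.61 and 11.45 on the control arrays against 11.48, 11.40 and 11.35, an overlap with a log2 difference of -0.09 (limma adjusted p = 0.432). GADD45A, a growth arrest and repair gene, differed by 0.02 (adjusted p = 0.870), and SESN2, the relative of SESN1, by -0.19 (adjusted p = 0.417). These 3 were named after their values were seen. All 3 are uncalled, so they do not stand for the list, of which 15 of 51 tested genes were called.

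The 6 called targets with the smallest p fell on both sides. PERP, a desmosomal membrane protein, was 1.68-fold lower (log2 difference -0.75, SE 0.08, limma adjusted p = 8.37e-05) on an _x_at probe set. Without _x_at and _s_at probe sets its difference was 0.084, and averaging its probe sets removed the call (adjusted p = 0.271). XPC, which recognises bulky DNA lesions, fell 1.66-fold from 9.87, 9.84 and 9.48 to 8.87, 9.17 and 8.94. FAM210B, a mitochondrial membrane protein, fell 1.78-fold and GDF15, a stress cytokine, 1.40-fold, although averaging the GDF15 probe sets removed its call (adjusted p = 0.0787). SERTAD1, a cofactor of cell cycle transcription, rose 1.61-fold, from 9.36, 9.39 and 9.22 to 9.93, 10.01 and 10.10. CCNG2, an atypical cyclin, rose 1.50-fold, a call also absent after averaging its probe sets (adjusted p = 0.101). The count of called targets was 8 of 51 without control siRNA replicate 2 and 9 of 51 without RNF43 siRNA replicate 2. Calls over all genes fell in both cases too, in the latter from 2684 to 1741. The lower counts were thus not confined to p53 targets. In both cases the share of targets called lay nearer that of all genes than the 29.4% above did.

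Of 58 genes that modify, bind or control p53 or MDM2, 49 were tested, with 4 higher and 6 lower (20.4% against 22.6% of all genes, median log2 difference -0.00). The lysine methyltransferase gene SETD7 showed the smallest p of the list, with a 1.97-fold fall from 11.56 to 10.58 (log2 difference -0.98, SE 0.08, limma adjusted p = 2.83e-05). HIPK2, a kinase that activates p53, fell 1.45-fold, and the deacetylase gene HDAC1 fell 1.34-fold. TRIM24, a ubiquitin ligase of p53, rose 1.39-fold, the deacetylase gene SIRT1 1.33-fold and the acetyltransferase gene KAT2B 1.46-fold. The calls of HIPK2 and TRIM24 were lost with their probe sets averaged (adjusted p = 0.0945 and 0.172), and that of KAT2B without RNF43 siRNA replicate 2 (adjusted p = 0.0525).

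Paralogues and partners of the members were called in 7 of 25 tested genes, 5 higher and 2 lower (28% against 22.6% of all genes, median log2 difference 0.08). SEH1L and SEC13, subunits of the GATOR2 complex to which sestrins bind, moved apart, with SEH1L 1.47-fold higher and SEC13 1.42-fold lower. With probe sets averaged, the log2 difference of SEH1L was 0.25 in place of 0.55, and that of the phosphatase gene PPM1B 0.27 in place of 0.41. The 3 further GATOR2 genes, named after their values were seen, did not pass, with log2 differences of -0.27 for WDR24, 0.12 for MIOS and -0.11 for WDR59. RRM2, the S-phase counterpart of RRM2B, rose 1.42-fold, from 12.48 to 12.99. PPM1B, a phosphatase related to PPM1D, rose 1.33-fold, and TOB1, an antiproliferative relative of BTG2, 1.26-fold. VAT1, an oxidoreductase of the same superfamily as TP53I3, fell 1.43-fold. TP53INP2, the relative of TP53INP1, rose 1.61-fold and is counted among the targets too.

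**Figure D4:**
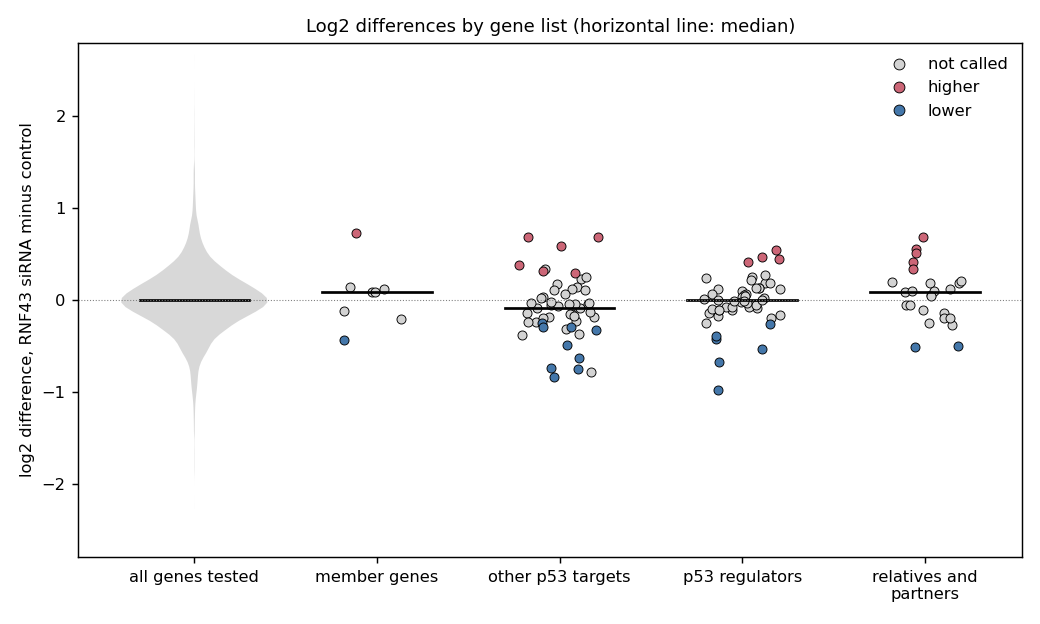
Log2 differences (RNF43 siRNA minus control) of all 11853 genes tested as a density, and of the tested genes of each list as points, coloured by call, with a line at the median. All 4 lists hold genes called in both directions, and their medians lie between -0.09 and 0.09.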

How the data were processed

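The deposited table holds log2 signals per probe set and array. MAS5, named in the submitters' processing notes, contrasts perfect-match with mismatch probes and scales every array. No source used here gives its version or scaling target. Base 2 was inferred, since linear means trimmed by 2% at each end then ran from 497.03 to 497.23. Dim probe sets are noisy, and 391 to 628 values per array were exactly 0. Values were used unchanged. The number of arrays limits the precision.

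Platform gene names were brought to current RefSeq symbols (GRCh38.p14): 41091 probe sets named 1 gene, 1801 several, and 11721 were unnamed here. A gene was read by its brightest single-gene probe set, tested where its mean ranked in the upper 50% of all probe sets. The test was limma 3.58.1 (R 4.3.3; lmFit, then eBayes with intensity trend; two-sided; Benjamini-Hochberg; threshold 0.05). Like fits covered all probe sets above the filter and, per array, differences between probe sets of 1 gene. The steps were tested on simulated data.

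Members and lists were chosen with earlier results of these data known. Named were RNF43, all members and the 6 called genes with the smallest p of each list. CDKN1A, GADD45A, SESN2, TP53INP2, WDR24, MIOS, WDR59 and the markers were added after their values were seen. Alternatives changed the normalization, the added signal, the filter, the variance model, array weights or the probe sets used, added a replicate block, or left out 1 array.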

Additional observations from a re-analysis of the deposited data

How the results depend on the processing

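The 2 gene calls, MDM2 and SESN1, held under each alternative of normalization, added signal, filter, variance model, array weights, replicate block and leaving out 1 array. With plain _at probe sets alone, 0 of 6 members tested were called, and 4 of 15 relatives tested. Fewer relatives were tested there, 15 in place of 25. The share of all genes called stayed close to the main 22.6%. In limma with probe sets averaged per gene, 2 members were called, SESN1 and PPM1D, and the counts fell to 1587 for all genes and 5 for p53 regulators. Leaving out 1 array gave 1741 to 2656 genes (1741 without RNF43 siRNA replicate 2), 8 to 15 other p53 targets and 3 to 4 member probe sets. Member probe sets called were 3 with no filter and 3 with the upper 30% of probe sets. With no filter, MDM2 205386_s_at and 217373_x_at were tested and did not pass (limma adjusted p = 0.0808 and 0.0509). With the upper 30% they fell below the filter and were not tested. The cause of the shifts in the other counts was not tested.

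Signs that turned were all of uncalled values but that of PERP, at 0.084 without _x_at and _s_at probe sets. Leaving out 1 array, ZMAT3 on 228315_at ranged from -0.070 (without control siRNA replicate 3) to 0.32, MDM4 on 205655_at from -0.46 to 0.014 (without control siRNA replicate 2) and MDM2 on 217542_at from -0.39 to 0.00018 (without control siRNA replicate 3). MDM4 on 225740_x_at was 0.019 with centring on the median and 0.036 with array weights, and ranged from -0.081 to 0.034 without 1 array. The cause was not tested.

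The number of probe set pairs over the whole array with a called difference in response (probe set discordance), 118, varied most: 288 with 64 added to the signal, 0 with no filter, 10 with the upper 70% and 257 with the upper 30% of probe sets, 349 with array weights and 8 to 36 without 1 array. In all of these 0 member pairs passed in limma, with 0 to 2 at an unadjusted p under 0.05.

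Deviations of same-numbered arrays correlated at 0.162, 0.0772 and 0.268, all positive. The median log2 signal rose from replicate 1 to 3 in both groups. It was 5.96, 5.97 and 6.02 on the control arrays and 5.89, 5.95 and 6.00 on the others. The sample titles number the replicates without saying whether they pair across groups, and the main fit did not use the numbers. Whether same-numbered arrays share an effect was not tested. With the replicate block 3908 genes, 2 members, 22 other p53 targets, 14 p53 regulators, 9 relatives, 8 member probe sets and 14 discordant pairs were called. The member probe sets gained were MDM2 244616_x_at (adjusted p = 0.0092), ZMAT3 227221_at (0.0173) and MDM4 235162_at (0.0444).

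Dim probe sets below the filter were not tested.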
